A study of Caenorhabditis elegans with 12 samples.

Results

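The transcriptome of worms that had been exposed briefly to rotenone was compared between 5 and 15 days of age, over 6 of the 12 RNA-seq libraries of the series, 3 at each age, and over all 17166 genes with enough counts to be tested out of 46748 in the count table. Libraries were assigned to the ages by the column of the count table that carries each label, and no measured value was used to choose them. All worms were whole hermaphrodites of the wild-type N2 strain of Caenorhabditis elegans. The rotenone groups had received 100 nM rotenone for 24 h, starting at the L4 stage (the last larval stage), and were collected at 5 or 15 days. The other 6 libraries came from worms of the same 2 ages kept with 0.1% dimethyl sulfoxide (DMSO), the solvent control, and serve here only as the ageing background without rotenone. Whether the rotenone worms also received the solvent, the event from which age was counted, how offspring were kept apart and whether replicates were separate cultures are not stated in the labels, so p-values measure the spread between these libraries, which may be technical.

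Rotenone blocks complex I of the mitochondrial respiratory chain, the enzyme that passes electrons from NADH to ubiquinone. An adult hermaphrodite has a post-mitotic body (muscle, neurons, intestine, epidermis) around a germ line that continues to divide, makes its sperm before adulthood and oocytes thereafter, and takes up yolk proteins made in the intestine. Ageing in this animal is known for the end of self-fertilisation, decline of muscle and pharynx, atrophy of the intestine and changes in the gonad, and transcripts of all these tissues are pooled in an extract of whole worms.

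Library totals ran from 45612486 to 49375222 counts at 5 days and from 41171323 to 52769067 counts at 15 days after rotenone. The first principal component of the 12 libraries held 82.0% of their variance and separated the ages. The spread between libraries of a group, as edgeR's biological coefficient of variation, was 2.67% at 5 days and 4.1% at 15 days. Levels are CPM (counts scaled to a common library size, with TMM factors), given per library or as mean ± SD (n = 3), and a log2 difference is 15 minus 5 days ± the standard error of the fitted model. A gene is said to rise or fall where edgeR's quasi-likelihood test gave a Benjamini-Hochberg adjusted p under 0.05 over all tested genes. Positions refer to the genome build WBcel235.

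Between the ages after rotenone 13647 of 17166 genes differed, 79.5% of those tested, with 6276 higher (36.6%) and 7371 lower (42.9%) at 15 days. The libraries of the ages did not overlap in 13963 genes (81.3%), and 13540 of the 13647 called genes had the same direction in each of the 3 sequencing lanes, each of which carried 1 library per group. Most differences were modest, with a median size of 0.65 on the log2 scale among called genes. A difference of at least 2-fold was called in 4149 genes (24.2%), and here the falls dominated, with 3248 lower (18.9%) against 901 higher (5.25%). With a minimum count of 50 the rises of that size numbered 394. At 4-fold or more, 826 genes fell and 273 rose, while at 16-fold or more the counts were 56 and 53. The rises of 16-fold or more were nearly all in genes of low level. Among genes with a mean of at least 5 CPM at the higher age, dhs-26 alone rose that much. Falls of that size among such genes included gst-14, grl-21 and chca-1. Against a background in which most genes pass, lists of genes are described by their counts in each direction and by their median, beside the median of all tested genes of -0.09. Lists with counts near the shares of all tested genes do not stand apart from that background. Among them are antioxidant enzymes, longevity transcription factors and early embryo genes. The falls of citric acid cycle, insulin-like peptide and F-box A genes were likewise near 42.9%. The shares also depended on the level of a gene. In the highest of 5 classes of equal size by mean level, 76.2% of genes rose, with a median of 0.31. Lists were not compared with genes of like level, so whether those of highly expressed genes stand apart from such genes was not tested. With library totals in place of TMM factors the split of calls was 5404 higher and 8186 lower and the median of all genes -0.19, and with relative log expression (RLE) factors it was 6959 higher and 6721 lower, so that small differences depend on the scaling.

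**Figure D1:**
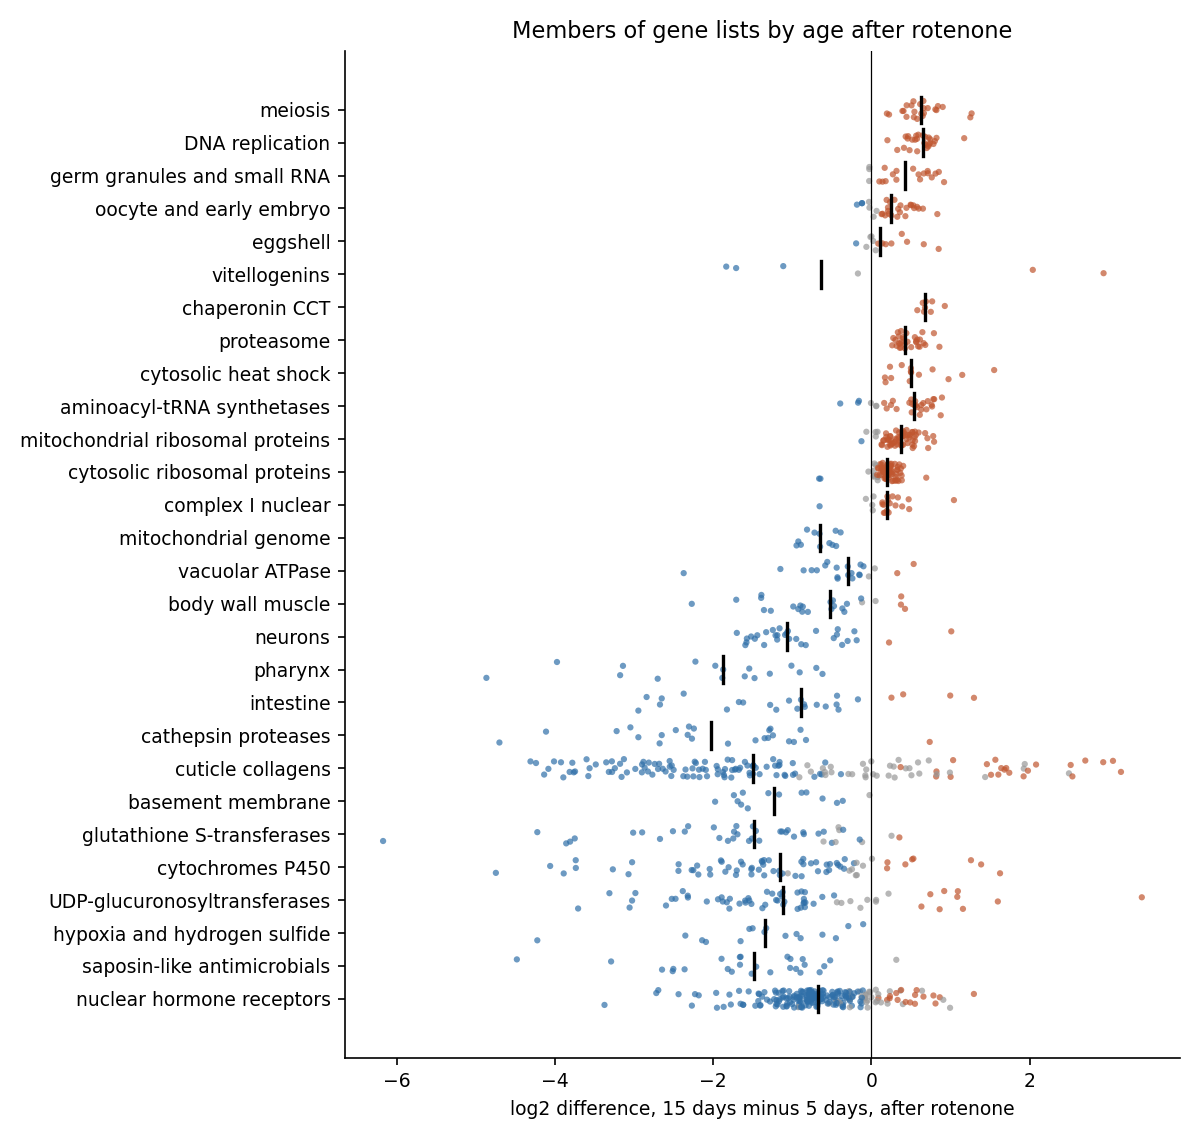
Log2 differences (15 minus 5 days, x axis) of the tested members of 28 gene lists after rotenone, 1 point per gene, with called rises in orange, called falls in blue, uncalled genes in grey and the list median as a black bar. The meiosis, DNA replication, chaperonin and proteasome lists lie wholly to the right of 0, the pharynx, hypoxia and mitochondrial genome lists wholly to the left, and vitellogenins lie on both sides.

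Yolk transcripts took a smaller share of the libraries at 15 days, and the members of the family did not all move the same way. The 6 vitellogenin genes together took 4.0% ± 0.146 of all counts at 5 days and 1.25% ± 0.0897 at 15 days. vit-6 (WBGene00006930, chromosome IV, 8261157 to 8266459), which encodes a yolk protein precursor, stood at 17769.7, 17561 and 19086 CPM at 5 days and 5569, 5813 and 5268 CPM at 15 days. The ages were far apart, and vit-6 fell by 1.71 ± 0.05 on the log2 scale (edgeR adjusted p = 9.26e-17). vit-2 (WBGene00006926, chromosome X, 5101042 to 5106169) stood at 13688, 13609 and 14789.6 CPM at 5 days and 4039.8, 4141 and 3627 CPM at 15 days and fell by 1.83 ± 0.05. vit-5 fell less, by 1.11 ± 0.06 on the log2 scale. Other members on the X chromosome went the other way. vit-3 (WBGene00006927, chromosome X, 3567355 to 3572549) was at 26.9, 29.6 and 29.4 CPM at 5 days and 250.1, 243 and 163 CPM at 15 days, every library at 15 days above every library at 5 days, a rise of 2.93 ± 0.12. vit-4 rose by 2.04 ± 0.09 from 41.4 ± 1.36 to 170.0 ± 31.9 CPM, and vit-1 was not called, at -0.17 ± 0.08. vit-3, vit-4 and vit-5 are closely similar in sequence, and how reads with several matches were counted is not stated, so the split between them is uncertain. In whole worms, fewer cells of a type and less RNA per cell cannot be told apart, here and in every tissue list that follows.

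Transcripts of the germ line rose together. All 24 meiosis genes (median 0.62) and all 27 DNA replication genes (median 0.65) were called higher. syp-1 (WBGene00006375, chromosome V, 16404274 to 16407701), a central component of the synaptonemal complex that holds paired chromosomes together, was at 63.5, 66.8 and 60.7 CPM at 5 days and 146, 154 and 154 CPM at 15 days. The groups did not overlap, and the rise was 1.25 ± 0.04 on the log2 scale (edgeR adjusted p = 1.90e-16). chk-2, the kinase that governs meiotic entry and pairing, rose by 1.27 ± 0.06, and him-3, of the chromosome axis, by 0.65 ± 0.03. rnr-2 (WBGene00004392, chromosome III, 4093308 to 4094921), the small subunit of ribonucleotide reductase that supplies deoxynucleotides, was at 541, 532 and 547 CPM at 5 days and 1206, 1194 and 1254 CPM at 15 days and rose by 1.17 ± 0.03. mcm-3, of the replicative helicase, rose by 0.80 ± 0.03, and rpa-1, which binds single-stranded DNA, by 0.82 ± 0.03. Among germ granule and small RNA genes 17 rose and 0 fell of 20 tested (median 0.42), and 14 rose and 3 fell with library totals. The rises included the P granule helicases glh-1, from 261 ± 6.6 to 493 ± 11.9 CPM, and glh-2 (0.85), and the P granule scaffold pgl-1 (0.53).

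Oocyte messages moved less. Of the oocyte and early embryo list 24 rose and 3 fell of 31 tested (median 0.25), which became 22 and 6 with library totals (median 0.15) and 27 and 1 with RLE factors. cav-1 (caveolin, 0.83), pie-1 (the germline fate repressor, 0.65) and par-2 (cortical polarity, 0.60) had the 3 largest rises. The falls were small: lin-41, which prevents oocytes from maturing too early, fell by 0.18 ± 0.03 on the log2 scale, and the calls of oma-2 (-0.12) and puf-5 (-0.12) were lost with RLE factors and with DESeq2. rme-2 (WBGene00004374, chromosome IV, 5470026 to 5473174), the oocyte receptor for yolk, was at 775, 788 and 807 CPM at 5 days and 774, 800.2 and 757 CPM at 15 days, with overlapping groups and a log2 difference of -0.02 ± 0.03. It was not called, but the scaling set both its call and its direction: it was called higher with RLE factors and with DESeq2 (0.065 in both) and called lower with library totals (-0.13) and upper-quartile factors (-0.076). Of 14 eggshell genes 8 rose and 1 fell. perm-4 (0.85), perm-1 (0.66) and perm-2 (0.45), needed for the eggshell's permeability barrier, had the 3 largest rises, the chitin-binding protein gene cbd-1 fell by 0.19 ± 0.03 on the log2 scale, and the chitin synthase gene chs-1 was at 0.00 ± 0.03 and not called, but was called higher with RLE factors and with DESeq2 (0.091 in both). With library totals 6 eggshell genes rose and 5 fell, and with RLE factors 12 rose and 1 fell.

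Sperm transcripts were at low levels, and their sum was higher at 15 days. Together 54 sperm genes took 0.00363% ± 1.16e-05 of all counts at 5 days and 0.00523% ± 0.000202 at 15 days. At both ages most of this share came from genes other than the 35 sperm markers described below. The size of the share at either age therefore mainly follows other members of the list, which need not hold for its rise. Of these, 33 had enough counts to be tested, and since a gene near 0 at 5 days could pass that filter through its counts at 15 days, their direction is not counted. With a minimum count of 50, 7 were tested, of which 4 rose and 0 fell (median 0.37). Summed over 31 genes of the major sperm proteins, which form the cytoskeleton of crawling sperm, the level was 0.611 ± 0.147 CPM at 5 days and 7.36 ± 2.16 CPM at 15 days. gsp-3, a sperm phosphatase with a near-identical copy in gsp-4, was at 0.0381, 0.0207 and 0.039 CPM at 5 days and 0.993, 0.744 and 0.619 CPM at 15 days. The level of gsp-3 at 5 days was near 0, so its direction is not counted either. All 35 sperm markers together summed to 1.75 ± 0.164 CPM at 5 days, with 10 of them at 0 counts, and to 9.68 ± 2.23 CPM at 15 days, with 3 at 0. Members of the major sperm protein family are nearly identical, so that only their sum is given. DMSO worms also had higher sums at 15 days. Their major sperm proteins summed to 4.88 ± 3.12 CPM at 15 days against 0.702 ± 0.0987 CPM at 5 days. The 35 sperm markers summed to 6.74 ± 3.54 CPM against 2.39 ± 0.212 CPM in these worms.

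Embryos carried inside the worms were followed by genes first transcribed in the embryo. Of 25 tested genes of the early embryo 8 rose and 13 fell (median -0.16), beside 36.6% higher and 42.9% lower over all tested genes. The counts were 9 and 11 with RLE factors and 9 and 9 with DESeq2. The T-box genes tbx-38 (2.0) and tbx-37 (1.34), which act in the fate of anterior blastomeres, rose, whereas end-1, a GATA factor of the endoderm, fell by 1.16 ± 0.24 on the log2 scale, all at a few CPM. Genes of the apical matrix laid down by late embryos and larvae were all 13 lower (median -1.17), among them noah-1 (-1.17), mlt-11 (-1.61) and cut-2 (-2.48). The sum of 5 markers of early embryos was 6.34 ± 0.156 CPM at 5 days and 7.31 ± 0.644 CPM at 15 days, and that of 5 markers of late embryos and larvae was 409.5 ± 6.62 CPM at 5 days and 165 ± 9.1 CPM at 15 days. The part that embryos inside the worms have in any of these age differences was not tested.

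The cuticle and the matrix beneath it had lower transcripts. Of 153 tested cuticle collagens 22 rose and 97 fell, with a median of -1.49, and 156 numbered collagens summed to 8731 ± 203 CPM at 5 days and 1423 ± 194 CPM at 15 days. col-19 (WBGene00000608, chromosome X, 421707 to 422691), a collagen of the adult cuticle, was at 218, 212 and 226 CPM at 5 days and 22.5, 27 and 18.2 CPM at 15 days. No library at 15 days came near the level at 5 days, and the log2 difference was -3.28 ± 0.08 (edgeR adjusted p = 1.00e-17). col-160 fell further, -4.31 ± 0.08, from 285 ± 7.48 to 14.3 ± 2.63 CPM. The rises numbered 10 without replicate 1 at 15 days and 12 of 110 tested with a minimum count of 50. Among the collagens that rose, col-183, col-73 and col-38 had means of 3.08, 2.96 and 2.77 CPM at 15 days. rol-6, a cuticle collagen known for its roller mutants, was at 1.0 ± 0.38. Its call was lost without replicate 1 at 15 days (0.19, edgeR adjusted p = 0.602) or without replicate 2 at 5 days (0.75, edgeR adjusted p = 0.0914). Basement membrane genes fell in 13 of 14 cases (median -1.23). The type IV collagen chains emb-9 and let-2 fell by similar amounts, -1.69 ± 0.05 and -1.74 ± 0.05, and mig-6 (papilin) was at -1.97 ± 0.04. Of the astacin metalloproteases 6 rose and 22 fell of 31 tested. nas-38 (-3.19) fell and nas-37 (1.36), which acts in shedding the old cuticle at moults, rose. Of the hedgehog-related genes 5 rose and 32 fell of 49 tested (median -0.91; 2 and 26 of 32 with a minimum count of 50), with grl-21 (-5.18) among the largest falls of all genes.

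Transcripts of the contractile and feeding organs fell. The body wall muscle list had 3 rises and 20 falls among 25 genes (median -0.52). myo-3 (WBGene00003515, chromosome V, 12226817 to 12234343), a myosin heavy chain of the thick filament core, was at 148, 149 and 141 CPM at 5 days and 47, 45.7 and 40.9 CPM at 15 days, a log2 difference of -1.71 ± 0.04. unc-54, the major body wall myosin heavy chain, fell less, -0.92 ± 0.08, and the troponin I gene tni-1 more, -2.27 ± 0.09. The 3 members that rose were, of troponin, tnt-2 (0.43) and unc-27 (0.38) and the integrin gene pat-3 (0.37). All 17 pharynx genes tested fell, with a median of -1.87. The pharyngeal myosin myo-2 went from 162 ± 4.33 to 53.4 ± 2.08 CPM, and the secreted gland proteins phat-5 (-4.86), phat-1 (-3.17) and phat-2 (-2.7) and the repeat protein abu-8 (-3.97) fell further.

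Neuronal transcripts were lower as a rule, with 29 of 31 falling and 2 rising (median -1.07). unc-17, the vesicular acetylcholine transporter, was at -1.7 ± 0.11, and the touch receptor tubulins mec-7 (-1.59) and mec-12 (-1.58) fell by almost as much. The exceptions were snb-1 (synaptobrevin, 0.22), which was at 250.0 and 292 CPM, and tbb-4 (a tubulin of ciliated neurons, 1.01). Of the neuropeptide genes tested, 8 rose, 84 fell and 12 were not called (median -0.62), from nlp-24 (-2.67) and nlp-39 (-2.45) to nlp-48 (1.71). In the gonad sheath and spermatheca list 3 rose and 9 fell of 12 tested. plc-1, a phospholipase of spermathecal contraction, fell by 1.18 ± 0.04 on the log2 scale, and lag-2, the Notch ligand of the distal tip cell, rose by 0.56 ± 0.10. The rise of fkh-6 (0.32) was not called with library totals or upper-quartile factors, nor without replicate 2 at 15 days (0.20) or replicate 2 (0.30) or 3 (0.32) at 5 days. Of 5 coelomocyte genes 3 fell, unc-122 by 1.31 ± 0.13 on the log2 scale, and the 2 that rose, cdc-42 (0.42) and cup-5 (0.23), are used in many cell types.

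The intestine, the organ of digestion, storage and yolk synthesis, had mostly lower transcripts at 15 days. Its 5 markers summed to 2070.0 ± 146 CPM at 5 days and 428 ± 15.5 CPM at 15 days, while the 5 muscle markers went from 1053 to 505 CPM, the 5 neuronal ones from 429.8 to 376 CPM and the 5 of germ line and oocytes from 2092 to 2501 CPM. The aspartyl protease asp-1 is among the intestinal markers and made up most of their sum, 1824 CPM at 5 days and 291 CPM at 15 days. The intestinal sum therefore mainly follows that gene. Likewise snb-1, which rose, made up most of the neuronal sum. Of 25 intestinal genes 21 fell and 4 rose. The gut esterase ges-1 was at -1.82 ± 0.06 and the acid phosphatase pho-1 at -2.84 ± 0.08. elt-2, the GATA factor of the differentiated intestine, fell less, from 17.5 ± 0.466 to 11.7 ± 0.598 CPM (-0.58 ± 0.05). The water channel aqp-8 (1.3), the intermediate filament ifd-2 (1.0) and gem-4 (0.40) rose. Lysosomal and digestive proteases fell with 1 exception: of 24 cathepsins 23 fell and 1 rose, with a median of -2.03. cpr-1 (WBGene00000781, chromosome V, 11975551 to 11976756), a cathepsin B-like cysteine protease, was at 1411, 1426 and 1498 CPM at 5 days and 177, 209 and 177 CPM at 15 days, a log2 difference of -2.94 ± 0.06. The aspartyl protease asp-1 went from 1824 ± 141.8 to 291 ± 12.58 CPM, cpr-5 fell by 4.11 ± 0.07 on the log2 scale, and asp-14 alone rose (0.74).

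**Figure D2:**
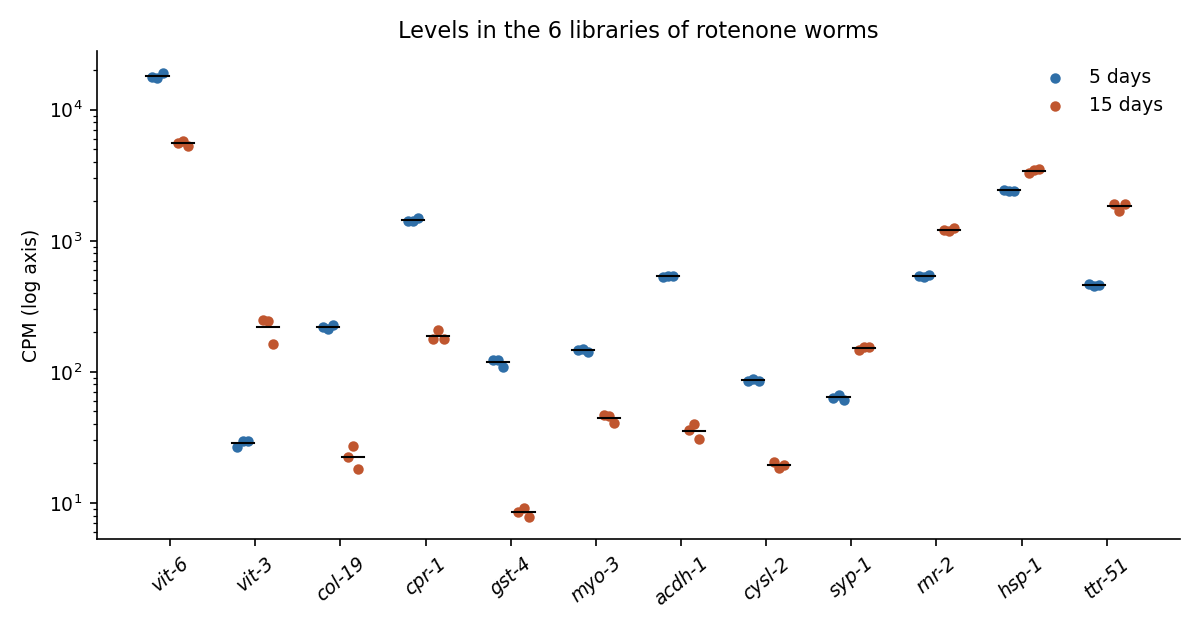
Level of 12 genes (CPM, log axis) in each of the 6 rotenone libraries, 3 points per age with the mean as a black line, blue at 5 days and orange at 15 days. The points of the ages do not overlap in any of these 12 genes, and vit-6, col-19, cpr-1, gst-4, myo-3, acdh-1 and cysl-2 were lower at 15 days while vit-3, syp-1, rnr-2, hsp-1 and ttr-51 were higher.

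Detoxification genes fell as families. Of 42 glutathione S-transferases, which conjugate toxins to glutathione, 35 fell and 1 rose (median -1.48). gst-4 (WBGene00001752, chromosome IV, 10142225 to 10143099), widely used as a reporter of the oxidative stress regulator SKN-1, was at 123, 124 and 109 CPM at 5 days and 8.51, 9.07 and 7.82 CPM at 15 days. Its log2 difference of -3.81 ± 0.09 was many times the spread within either age (edgeR adjusted p = 4.83e-18). gst-14 (WBGene00001762, chromosome II, 13614781 to 13616100) had the largest fall of the named genes, a log2 difference of -6.17 ± 0.10, with 42.3, 44.3 and 42.1 CPM at 5 days and 0.611, 0.62 and 0.544 CPM at 15 days. The single rise was gst-43 (0.35). Cytochromes P450, which oxidise foreign and endogenous lipids, had 56 falls and 8 rises among 72 (median -1.16). In that family cyp-14A4 (-4.74) fell and cyp-13A5 rose from 42.7 ± 1.24 to 132 ± 6.05 CPM. UDP-glucuronosyltransferases had 48 falls and 9 rises among 65 (median -1.12). ugt-62 fell from 405 ± 8.0 to 31.1 ± 2.73 CPM, and ugt-63 (WBGene00015449, chromosome V, 5108180 to 5110772) was among the largest rises of all genes, at 4.12, 3.96 and 3.28 CPM at 5 days and 37.9, 41.3 and 42.5 CPM at 15 days. In the list of flavin monooxygenases and alcohol dehydrogenases 1 rose and 10 fell of 11 tested, with fmo-2 at -2.51 ± 0.07. ABC transporters, which export lipids and drugs, had 30 falls and 11 rises among 47, with pmp-5 (-2.67) falling and the haem exporter mrp-5 (0.77) rising.

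The hypoxia and hydrogen sulfide list fell without exception, 16 of 16 (median -1.34). cysl-2 (WBGene00010759, chromosome II, 14492874 to 14494451), a cyanoalanine synthase that is a target of the hypoxia factor HIF-1, was at 84.4, 87.6 and 85.7 CPM at 5 days and 20.5, 18.5 and 19.4 CPM at 15 days, and cth-1, a cystathionine gamma-lyase, fell by 2.35 ± 0.04 on the log2 scale. Antioxidant enzymes moved in both directions, in shares near those of all tested genes (36.6% higher and 42.9% lower). Of 19 superoxide dismutases, catalases and peroxiredoxins 6 rose and 10 fell: the mitochondrial dismutase sod-2 rose by 0.40 ± 0.03, its inducible counterpart sod-3 was at -0.80 ± 0.11, and the glutathione peroxidases gpx-6 (-2.17) and gpx-7 (-3.39) fell furthest. Glutathione and thioredoxin genes counted 8 rises and 4 falls among 14, with gcs-1, the first enzyme of glutathione synthesis, at 0.48 ± 0.03 and the methionine sulfoxide reductase msra-1 at -2.35 ± 0.06. Genes of metals fell in 10 of 14 cases. The metallothionein mtl-1 went from 303 ± 11 to 60.1 ± 3.56 CPM, and cdr-1 (-2.76) and cdr-4 (-2.67), named for their response to cadmium, fell too. The ferritin ftn-1 was at 0.07 ± 0.04 and not called, but was called higher with RLE factors and with DESeq2 (0.16 in both) and without replicate 2 at 5 days (0.11).

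Genes that fold and degrade proteins rose, apart from those of lysosomes and the small heat shock proteins. All 14 cytosolic heat shock genes (median 0.50), all 8 subunits of the chaperonin CCT (median 0.68) and all 31 proteasome genes (median 0.43) were called higher. hsp-1 (WBGene00002005, chromosome IV, 17278959 to 17281330), the constitutive Hsp70 of the cytosol, was at 2449, 2407 and 2417 CPM at 5 days and 3316, 3447 and 3522 CPM at 15 days and rose by 0.50 ± 0.04 on the log2 scale (edgeR adjusted p = 1.86e-10). cct-6 (0.93), the co-chaperone gene sti-1 (0.60) and the proteasome lid genes rpn-9 (0.86) and rpn-11 (0.79) moved the same way, and rpn-6.1 rose by 0.40 ± 0.03. Genes of endoplasmic reticulum stress counted 16 rises and 2 falls among 21 (4 falls with library totals), with the Hsp70 genes hsp-4 at 0.32 ± 0.03 and hsp-3 at 0.25 ± 0.03 and their regulator xbp-1 at 0.52 ± 0.03. The small heat shock proteins split, 5 up and 6 down of 13. Stress-inducible hsp-16.2 (0.72) and hsp-16.41 (1.08) and the DAF-16 target hsp-12.6 (1.95) rose, and hsp-17 (-1.99) and hsp-12.1 (-2.82) fell. The hsp-16 genes are near-identical copies and their single values are uncertain.

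On the lysosomal side, 18 of 22 vacuolar ATPase genes fell and 2 rose (median -0.30). vha-6, the subunit of the intestine's luminal membrane, fell from 264 ± 7.42 to 51 ± 5.28 CPM, and unc-32 (0.33) and vha-18 (0.53) rose. Autophagy and lysosome genes were mixed, 14 up and 8 down of 26, and the split became 9 up and 11 down with library totals, 10 against 10 with upper-quartile factors and 16 up and 5 down with RLE factors. lgg-1, the membrane-bound marker of autophagosomes, rose by 0.48 ± 0.03, whereas hlh-30, the transcription factor of autophagy and lysosome genes, fell by 0.52 ± 0.04 on the log2 scale.

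The respiratory chain, the target of rotenone, differed by the genome that encodes its parts. Of 22 nuclear genes of complex I 17 rose and 1 fell (median 0.20), and of 31 of complexes II to V 17 rose and 7 fell (median 0.11). With library totals these counts were 13 up and 4 down and 12 up and 11 down. The medians of both lists lay below the 0.31 of the highest of 5 classes by level, and genes of like level were not compared. nuo-1, which binds NADH, rose by 0.47 ± 0.03. nduf-2.2 (WBGene00006463, chromosome III, 6465222 to 6467206), which encodes the core complex I subunit that gas-1 also encodes, was at 75.5, 74.8 and 74.5 CPM at 5 days and 153, 159 and 152 CPM at 15 days. gas-1 (WBGene00001520, chromosome X, 15586786 to 15590397) was at 91.7, 88.9 and 94 CPM at 5 days and 60, 59 and 55.4 CPM at 15 days, so that of these alternative genes 1 rose by 1.04 ± 0.04 and the other differed by -0.65 ± 0.04 on the log2 scale. All 12 protein-coding genes of the mitochondrial genome fell (median -0.65), and their sum was 5329.6 ± 365 CPM at 5 days and 3679 ± 166 CPM at 15 days. The complex I subunits ND6 (-0.95), ND4L (-0.92) and ND2 (-0.89) fell furthest, at low levels. In DMSO worms the median of the same 12 genes was -0.25, and in 7 of the 12 the age difference itself differed between treatments by the interaction test, always lower after rotenone, against 25.7% of all tested genes called in that test. For the nuclear genes the DMSO medians were 0.04 (complex I) and -0.06 (complexes II to V). Their interaction was called in 16 of 22 and 19 of 31 genes, always higher after rotenone. Over all tested genes the split of interaction calls turned with the scaling, so these directions are uncertain. Genes of the mitochondrial unfolded protein response counted 10 rises and 5 falls, and 6 rises and 5 falls with library totals. The chaperone hsp-60 (0.55) and the proteases lonp-1 (0.50) and spg-7 (0.52) rose, while dve-1 (-1.09) and haf-1 (-0.52), which act in signalling from mitochondria, fell. The call of hsp-6 (0.17) was lost with library totals.

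Genes of translation and RNA were mostly higher at 15 days. Of 79 cytosolic ribosomal proteins 67 rose and 2 fell (median 0.20), a count that became 48 and 4 with library totals. Their median too lay below the 0.31 of the highest of 5 classes by level. Of 65 mitochondrial ribosomal proteins 60 rose and 1 fell (median 0.37). Aminoacyl-tRNA synthetases, which charge tRNAs, had 25 rises and 3 falls among 31 (median 0.54), with mars-1 from 205 ± 6.68 to 380.3 ± 6.45 CPM. Of these falls the largest was nars-2 (-0.39), and the calls of ears-2 and aars-1 were lost with RLE factors. Translation factors counted 16 rises and 3 falls among 19 (1 fall with RLE factors), nucleolar and ribosome assembly genes 13 and 2 among 16, and splicing genes 21 and 2 among 24. fib-1 (fibrillarin, which methylates ribosomal RNA) rose from 349 ± 3.44 to 570.1 ± 7.3 CPM. The 2 splicing genes that fell, sup-12 (-1.22) and unc-75 (-1.53), encode splicing regulators of muscle and of neurons. Histone genes rose in 29 of 39 tested cases and fell in 5 (median 0.72), or in 3 with RLE factors. his-60 rose from 10.1 ± 0.195 to 41.6 ± 1.96 CPM and the linker histone gene hil-7 fell from 113 ± 4.45 to 20.5 ± 2.38 CPM. Core histone genes are multicopy, so single members are uncertain.

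By reads per length, eef-1A.1 (elongation factor 1-alpha), rps-25 and rpl-10 were among the 6 highest genes at both ages. The elongation factor had 6145 ± 160.1 RPKM (reads scaled by exonic length and by library size) at 5 days and 8369.6 ± 221 at 15 days. vit-6 (3582 RPKM at 5 days), vit-2 (2843) and the lipid-binding far-2 (5105) left this group, and ttr-51 (3799 RPKM at 15 days), rpl-41.2 and the ribosomal RNA gene rrn-3.1 entered it. ttr-51 (WBGene00010440, chromosome IV, 13250655 to 13252311), of the transthyretin-related secreted proteins, was at 469, 453 and 463 CPM at 5 days and 1907, 1674 and 1900.4 CPM at 15 days, a rise of 1.99 ± 0.04 on the log2 scale (edgeR adjusted p = 2.91e-18). Its family had 13 rises and 32 falls among 49, with ttr-45 (1.84) and ttr-34 (1.52) rising and ttr-52 (-3.04) falling. The rise of rrn-3.1 (0.80 ± 0.27) was lost without replicate 2 at 15 days (0.48) or without replicate 1 at 5 days (0.54).

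Metabolic genes were divided by pathway. Genes of fatty acid desaturation, elongation and synthesis had 13 falls and 3 rises among 18 (median -0.78). The elongases of branched-chain fatty acids, elo-5 (-2.28) and elo-6 (-1.91), fell, while the delta-9 desaturases fat-5 (2.07) and fat-6 (0.72) rose. Fatty acid oxidation counted 12 rises and 18 falls among 32. acdh-1 (WBGene00016943, chromosome I, 6497436 to 6499560), the acyl-CoA dehydrogenase of the propionate shunt, was at 532, 536 and 539 CPM at 5 days and 35.9, 39.7 and 30.7 CPM at 15 days. Its log2 difference of -3.92 ± 0.07 stood beside one of -2.26 ± 0.05 in hphd-1, a later enzyme of the same shunt. Lipid binding proteins and lipases fell in 21 of 27 cases and rose in 5 (3 with library totals), with the lysosomal lipases lipl-1 (-3.7) and lipl-3 (-2.66) falling and the fat-store lipase atgl-1 (0.27) rising. Glycolysis and gluconeogenesis had 15 falls and 3 rises among 23 (5 rises with RLE factors), with the pyruvate kinase pyk-2 at -1.24 ± 0.05 and the gluconeogenic pck-2 at -0.71 ± 0.04. Of the citric acid and glyoxylate cycles 5 genes rose and 9 fell among 21, turning to 10 up and 8 down with RLE factors and 4 up and 14 down with library totals. icl-1, the glyoxylate cycle enzyme, fell from 764 ± 5.68 to 272 ± 9.85 CPM. One-carbon and methionine genes counted 8 rises and 7 falls among 16, and 6 and 7 with library totals. The S-adenosylmethionine synthetase sams-1 (-0.80), the phosphoethanolamine methyltransferase pmt-1 (-1.25) and the folate transporter folt-2 (-3.57) fell and the serine hydroxymethyltransferase mel-32 (0.56) rose. Glycerol and trehalose genes had 3 rises and 4 falls among 11, and 5 and 4 with RLE factors, aquaporins 1 rise and 8 falls among 12, and globins 27 falls and no rise among 34.

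Immune effectors were lower in most families. Saposin-like antimicrobials fell in 25 of 26 cases (median -1.48), with spp-23 from 43.9 ± 1.36 to 1.96 ± 0.156 CPM. Lysozymes counted 2 rises and 9 falls among 13, and 1 of the rises, lys-7 (0.15), was not called with library totals, with upper-quartile factors, without replicate 3 at 15 days (0.098) or without replicate 1 at 5 days (0.12). lys-4 was at -4.64 ± 0.06 and lys-8 at -1.83 ± 0.06, whereas the invertebrate-type lysozyme ilys-3, which digests bacteria, rose from 13.7 ± 0.573 to 31.5 ± 2.4 CPM. Of 138 tested C-type lectins 81 fell and 29 rose (median -0.85), against 65 and 15 of 90 with a minimum count of 50, and clec-52 (-4.76) and clec-17 (-4.91) were among the largest falls of all genes. Infection response genes had 12 rises and 29 falls among 50, with irg-4 (0.73), pals-5 (1.16) and cnc-7 (2.7) rising and thn-2 (-1.54) and fip-2 (-2.8) falling.

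In the insulin pathway, which shortens adult life when active, kinase genes moved in both directions and the receptor gene differed by little. daf-2 (WBGene00000898, chromosome III, 2994514 to 3040846), the insulin receptor, was at 175, 169.7 and 177 CPM at 5 days and 166, 167 and 183 CPM at 15 days, overlapping groups with a difference of -0.01 ± 0.03 that was not called, and with library totals it was called lower (-0.12, edgeR adjusted p = 0.0046). Downstream of it, the kinase genes age-1 (0.58), pdk-1 (1.07) and akt-1 (0.50) and the FOXO factor daf-16 (0.31) rose, and sgk-1 (-0.34) fell. Across the pathway 10 rose and 4 fell of 15 tested. Of the insulin-like peptides 7 rose and 14 fell of 32 tested: ins-8 went from 0.0657 ± 0.00937 to 2.74 ± 0.273 CPM and ins-19 from 45.7 ± 1.28 to 18.3 ± 0.404 CPM. Among genes activated by DAF-16 5 rose and 9 fell of 14 (median -0.99), and 3 rose and 9 fell with library totals. The list of longevity transcription factors had 11 rises and 18 falls among 34, and 14 and 13 with RLE factors. pqm-1 (-0.81), pha-4 (-1.28) and nhr-80 (-1.21) fell and nhr-86 (0.49) rose. Of 221 nuclear hormone receptors 170 fell and 17 rose (median -0.67), and nhr-114, which acts in the intestine and germ line, fell from 76 ± 2.12 to 11.7 ± 0.769 CPM. F-box A genes had 32 rises and 67 falls among 145, and tubulins and intermediate filaments 7 and 16 among 23, with tba-9 (-4.36) falling and gamma-tubulin tbg-1 (0.86) rising.

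The largest rises among genes of at least 5 CPM at the higher age were led by dhs-26 (WBGene00000989, chromosome X, 3360722 to 3362493), a short-chain dehydrogenase. It was at 1.79, 2.01 and 1.95 CPM at 5 days and 38.2, 45.7 and 40 CPM at 15 days, a rise of 4.43 ± 0.08 on the log2 scale, or 21.5-fold in mean CPM (edgeR adjusted p = 1.85e-19). The next were R07C12.1 (3.9), C27H5.6 (3.84), Y57E12B.10 (3.59), Y68A4A.13 (3.44), ugt-63, ZC239.22 (3.31), pud-3 (3.24) and ora-1 (3.23). T22B7.7 (2.84), also among these 15 genes, was at 38.3, 41.2 and 36.7 CPM at 5 days and 258, 304 and 268 CPM at 15 days. At the other end, gst-14 was followed by F10D2.8 (-5.62), F22B3.7 (-5.56), grl-21, ech-9 (-5.06), an enoyl-CoA hydratase, clec-17, nspe-2 (-4.9), phat-5 and pqn-71 (-4.85). chca-1 (-4.76), also among the 15 largest falls, was at 129, 128 and 131 CPM at 5 days and 5.25, 4.73 and 4.26 CPM at 15 days. No gene had counts at 1 age only and 5 CPM or more at the other.

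The chromosomes differed in the balance of rises and falls. On chromosomes I and III, 49.2% and 48.7% of tested genes rose and 32.2% and 31.8% fell. Chromosomes II (38.1% and 40.8%) and IV (39.3% and 40.8%) were close to even, chromosome V had 28.6% and 49.2%, and the X chromosome had 18.3% higher and 60.9% lower. The median log2 difference of the 2495 tested X-linked genes was -0.47 after rotenone and -0.41 in DMSO worms. In C. elegans the X chromosome is largely silent in germ cells until late oogenesis, and genes of the germ line lie mainly on autosomes. The level of a gene went with its direction too: with genes in 5 classes of equal size by mean level, 76.2% of the highest class rose and 66.2% of the middle class fell. Genes are not independent replicates, and these shares are descriptions.

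**Figure D3:**
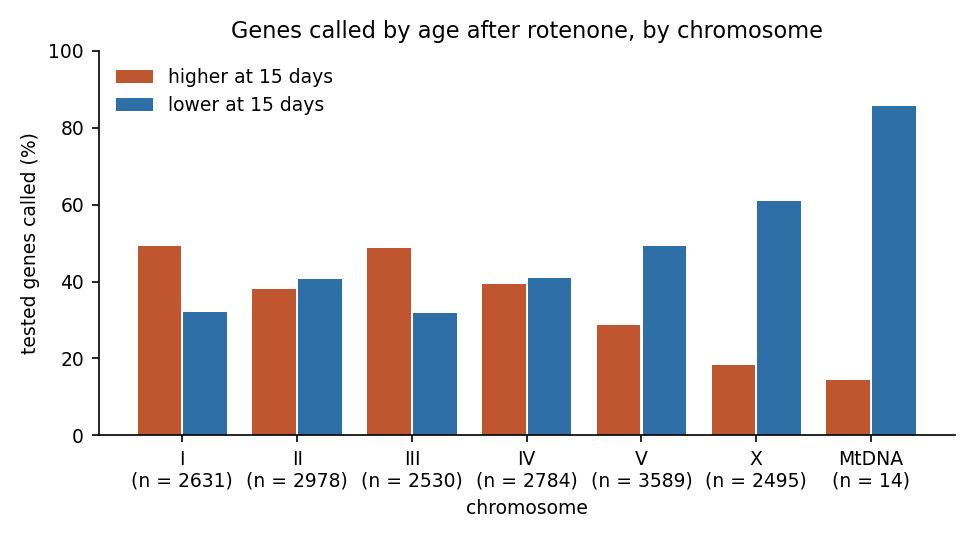
Share of tested genes called higher (orange) and lower (blue) at 15 days after rotenone, in percent from 0, for each chromosome with its number of tested genes. Rises outnumber falls on chromosomes I and III, and falls outnumber rises most on the X chromosome and in mitochondrial DNA.

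Some copies of 1 function on an autosome and on the X chromosome moved in opposite directions. In 11 pairs of an autosomal and an X-linked gene for the same protein or subunit, picked after their values were seen, the autosomal copy rose and the X-linked copy fell in all 11, with a median gap of 1.34 on the log2 scale and a range from 0.54 to 2.11. Because of that choice, the count and the gap do not measure how common such pairs are. rpl-11.1 (WBGene00004422, chromosome V, 3585312 to 3586064) was at 886, 914 and 884 CPM at 5 days and 1449, 1459.5 and 1432 CPM at 15 days, and rpl-11.2 (WBGene00004423, chromosome X, 2241738 to 2242618), for the same ribosomal protein, at 462, 469.7 and 494 CPM at 5 days and 309.6, 302 and 301 CPM at 15 days. Complex III has ucr-2.3, which rose by 1.16 ± 0.03, and ucr-2.1, at -0.77 ± 0.04. ATP synthase has asb-1 (0.96) and asb-2 (-0.81), the former known as the germline form, and glycolysis has gpd-1 (0.32) and gpd-2 (-1.78). The call of the X-linked eef-1A.2 (-0.15) was lost with RLE factors and with DESeq2. Over all 31 gene names with numbered copies on both an autosome and the X chromosome, the autosomal mean lay above the X-linked mean in 24, by a median of 0.32. These names include rpl-11, rpl-25 and ucr-2 of the pairs. Over all tested genes the X-linked median was -0.47, and the autosomal medians ran from -0.29 (chromosome V) to 0.15 (chromosome I). gpd-1 and gpd-4, and likewise gpd-2 and gpd-3, are near-identical copies, and their single values are uncertain. Whether the chromosome, or the tissue or level of each copy, has a part in these differences was not tested.

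**Figure D4:**
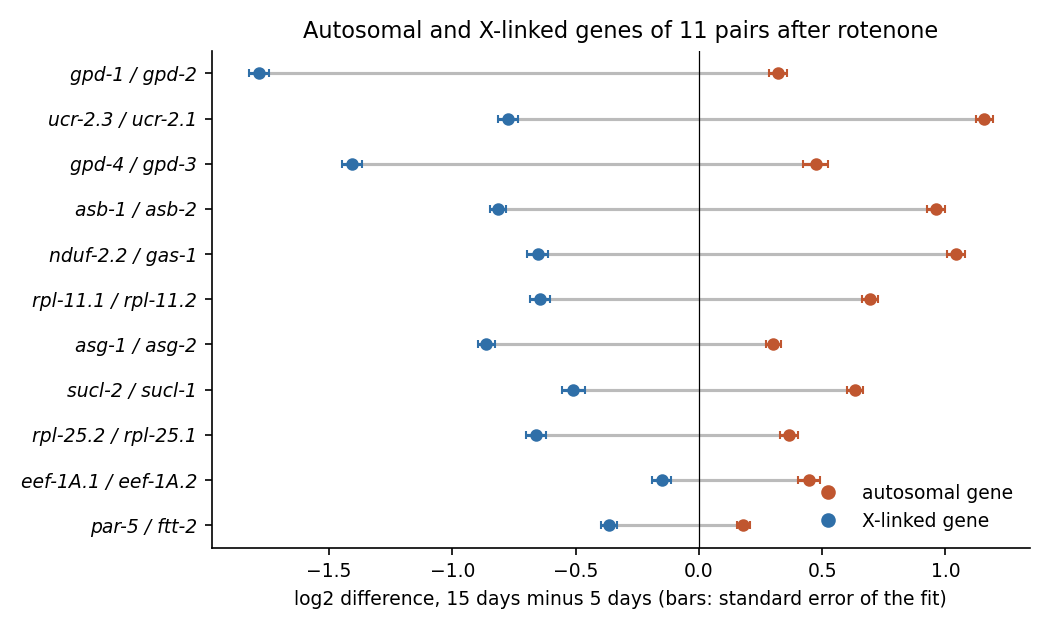
Log2 difference (15 minus 5 days, x axis) of the autosomal (orange) and the X-linked (blue) gene in 11 pairs after rotenone, with the standard error of the fit as bars. All 11 autosomal genes lie above 0 and all 11 X-linked genes below 0, and the pairs had been picked after their values were seen.

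Set beside ageing without rotenone, most of the change was shared. DMSO worms had 13079 called genes between the ages (76.2%), 6050 higher (35.2%) and 7029 lower (40.9%). Of the 13647 genes called after rotenone, 11533 (84.5%) were called in the same direction in DMSO, which is 88.2% of the DMSO calls, and 230 were called in opposite directions. Across genes the log2 differences had a Pearson r of 0.922, given as a description over genes of libraries that the contrasts do not share. The interaction test, which asks whether the age difference itself was other after rotenone, called 4419 genes (25.7%), 2643 with a higher (15.4%) and 1776 with a lower (10.3%) log2 difference after rotenone. This split turned with the scaling: it was 3131 and 1446 with RLE factors, 2927 and 1050 with DESeq2, 1636 and 2697 with upper-quartile factors and 940 and 4295 with library totals. At 2-fold or more the interaction called 234 genes (1.36%).

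pud-3 (WBGene00017501, chromosome V, 2324634 to 2325152), a gene of unknown function named for a protein that is upregulated when daf-2 is reduced, had the largest interaction among named genes. After rotenone it was at 1.79, 1.54 and 1.46 CPM at 5 days and 19.6, 15.1 and 10.1 CPM at 15 days. In DMSO worms it was at 22.8, 24 and 19.9 CPM at 5 days and 19.2, 16.8 and 17.4 CPM at 15 days. Its groups thus separated by age after rotenone while its DMSO difference was -0.32, and the interaction was 3.56 ± 0.25 on the log2 scale (edgeR adjusted p = 8.98e-09). Its neighbour in name pud-4 followed, 2.15 after rotenone against -0.68 in DMSO.

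All 3 delta-9 desaturase genes, whose enzymes make monounsaturated fatty acids, had called interactions. fat-5 had a log2 difference of 2.07 after rotenone and 0.26 in DMSO worms, fat-6 0.72 and -0.50, and fat-7 -0.13 and -2.12. fat-7 (WBGene00001399, chromosome V, 7151353 to 7153146) was at 6.14, 6.93 and 7.16 CPM at 5 days and 7.25, 6.62 and 4.43 CPM at 15 days after rotenone. In DMSO worms it was at 27.9, 27.5 and 26.7 CPM at 5 days and 5.59, 5.98 and 7.18 CPM at 15 days, so that the levels at 15 days were alike in size and those at 5 days were not. fat-6 (WBGene00001398, chromosome IV, 11913692 to 11915687) was at 91.7, 90.4 and 98 CPM at 5 days and 152, 159.5 and 150.2 CPM at 15 days after rotenone and at 206, 221 and 212 CPM at 5 days and 148, 147 and 156 CPM at 15 days in DMSO worms. The interactions were, for fat-5, 1.81 ± 0.07, for fat-6 1.22 ± 0.05 and for fat-7 1.99 ± 0.16, with edgeR adjusted p of 2.39e-12, 1.22e-11 and 7.77e-08. hacd-1 (WBGene00019978, chromosome V, 1460369 to 1461613) went the other way. This gene for a dehydrogenase of fatty acid breakdown was at 98.9, 93.6 and 100.3 CPM at 5 days and 40.1, 43.5 and 36.5 CPM at 15 days after rotenone and 29.1, 27.6 and 26.8 CPM at 5 days and 44.1, 42.9 and 40.4 CPM at 15 days in DMSO worms. It fell with age after rotenone and rose in DMSO, with an interaction of -1.89 ± 0.07 (edgeR adjusted p = 3.74e-12).

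Yolk, muscle and detoxification genes also had unlike age differences. vit-4 rose by 2.04 ± 0.09 after rotenone against 0.35 in DMSO, and vit-3 by 2.93 ± 0.12 against 1.74. In muscle, tnt-2 and unc-27 rose after rotenone and had log2 differences of -0.82 and -0.64 in DMSO worms. gst-14 fell further after rotenone (-6.17) than in DMSO (-4.52), as did ech-9 (-5.06 and -3.08), while folt-2 fell less (-3.57 and -5.11). The vitellogenin list had a median interaction of 0.84, with all 6 genes called higher. Its share of counts at 5 days was 5.62% in DMSO worms and 4.0% after rotenone. At 15 days it was 1.28% and 1.25%. Over other lists, the median interaction was 0.18 for meiosis, -0.20 for the pharynx, 0.54 for cathepsins and -0.05 for glutathione S-transferases. The split of interaction calls turned with the scaling, so the medians near 0 (meiosis, pharynx and glutathione S-transferases) are uncertain. Of 24 tested cathepsins 18 had a called interaction, 17 of them higher and 1 lower after rotenone.

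**Figure D5:**
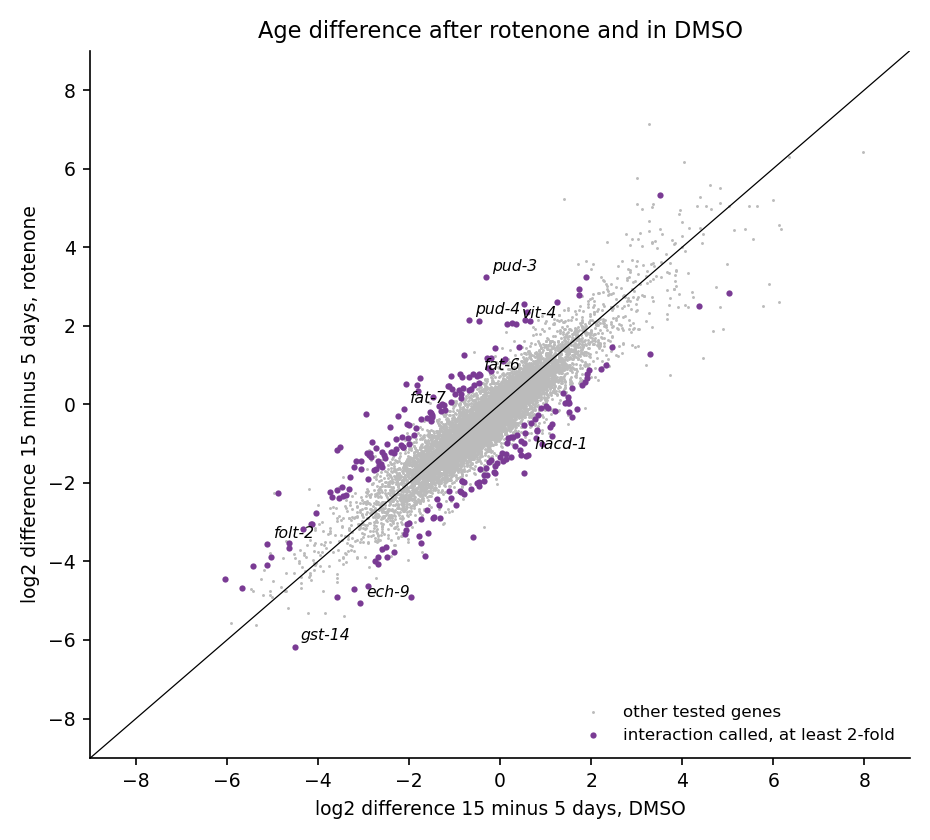
Log2 difference between 15 and 5 days after rotenone (y axis) against that in DMSO worms (x axis) for 17166 genes, with the 234 genes whose interaction was called and at least 2-fold in purple, and the line of equal differences. Most points lie along the line, with a Pearson r of 0.922, and pud-3, pud-4, vit-4 and fat-7 lie above it while gst-14, ech-9 and hacd-1 lie below.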

How the data were processed

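The deposited counts are unnormalized whole numbers of reads for each gene. Per the submitters' processing notes the tools were STAR 2.4.1d, featureCounts 1.4.6-p4 and bcl2fastq 1.8.3, on WBcel235. Settings and the handling of multi-mapped reads are not given in the sources used here, and the kit (TruSeq RNA v2) does not mark the strand by its usual protocol, so overlapping genes and near-identical copies are uncertain. A deposited RPKM table was not used. Of 46748 genes 28963 had a count.

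Counts were fitted in R 4.3.3 with edgeR 4.0.16 (TMM factors, filterByExpr with a minimum count of 10, quasi-likelihood F test, no covariates) over all 12 libraries in 4 groups of 3, which share 1 estimate of the spread. Contrasts were 15 minus 5 days after rotenone and in DMSO, and their difference (interaction), Benjamini-Hochberg adjusted over 17166 genes. The standard error is the log2 difference divided by the square root of F. Alternatives were RLE, upper-quartile and total-count scaling, no filter or a minimum count of 50, the 6 rotenone libraries alone, DESeq2 1.42.0, limma voom 3.58.1, a lane block and leaving out each library. The fit was tested on simulated data in which few genes were changed, as many up as down. In the real data most genes differed, so that test does not cover the scaling used here.

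Symbols and positions came from Ensembl release 115 (46449 identifiers matched, 299 not) and mitochondrial names from RefSeq. RPKM were computed from counts, exonic length and TMM-scaled totals. Replicates of the same number shared a lane per the labels, and the deviations of same-lane libraries from their group means had correlations of 0.002 to 0.043 across genes. Pairs of replicates differed by 3.04 to 13.2 times counting noise in the mean over genes. In the median over genes the range was 1.24 to 2.61, lowest for a pair at 5 days after rotenone. No pair thus differed by counting noise alone.

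The members and the 70 gene lists were chosen with earlier results of these data known, and a list gets no test. Named genes are taken from the 15 largest rises and falls (at least 5 CPM), the 3 largest called rises and falls of each list (at least 1 CPM) with preset anchors, the 8 largest interactions each way and the 6 genes with most reads per length at each age. The text picks among these by role, and vit-1 was added to complete its family.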

Additional observations from a re-analysis of the deposited data

Results flagged for a closer look

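The age difference after rotenone differed from that in DMSO worms, with an interaction called by edgeR and at least 2-fold, in 38 of the named genes. It was higher after rotenone, by the log2 amount in brackets, for pud-3 (3.56), pud-4 (2.83), col-139 (2.64), C32H11.4 (2.57), oac-32 (2.14), col-183 (2.02), fat-7 (1.99), T12D8.5 (1.96), clec-43 (1.85), fat-5 (1.81), ins-8 (1.81), vit-4 (1.69) and folt-2 (1.54). The direction was the same, at smaller sizes, for ora-1 (1.35), cpr-5 (1.31), tnt-2 (1.24), fat-6 (1.22), vit-3 (1.19), asp-14 (1.17), ifc-1 (1.1), dod-24 (1.06), ugt-41 (1.05), dod-3 (1.04), unc-27 (1.01) and lys-7 (1.01). It was lower after rotenone for nhr-265 (-2.77), ech-9 (-1.98), hacd-1 (-1.89), clec-70 (-1.72), cyp-13A7 (-1.68), gst-14 (-1.65), gst-30 (-1.58), col-104 (-1.57), WBGene00012680 (-1.5), clec-9 (-1.48), nspe-2 (-1.31), cyp-13A8 (-1.21) and dod-17 (-1.16).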

How the results depend on the processing

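With the replicate block on sequencing lane 13704 genes were called by age after rotenone, 6303 higher and 7401 lower, and 4653 by the interaction, and the calls held in all 513 results for single genes computed under it, while counts of some lists moved by at most 3. Leaving out 1 library gave 13199 to 13360 calls (6030 to 6213 higher, 7110 to 7169 lower), 4230 to 4321 at 2-fold or more (890 to 972 higher, 3265 to 3431 lower) and 3446 to 4222 interaction calls (2049 to 2578 higher, 1354 to 1651 lower). For age in DMSO worms, whose alternatives were chosen after seeing the data, leaving out 1 library gave 12594 to 12792 calls (5795 to 5897 higher, 6759 to 6911 lower) against 13079. With a minimum count of 50, 394 genes rose 2-fold or more, since fewer low genes were tested. The interaction's split moved with scaling, to 940 higher and 4295 lower with library totals, 1636 and 2697 with upper-quartile factors and 1050 lower with DESeq2, and the cause was not tested. The difference of rme-2 turned to 0.065 with RLE factors and with DESeq2 and that of chs-1 to -0.10 with library totals. With library totals the calls of rpl-10, isp-1, hsp-6, prdx-2, lys-7 and fkh-6 were lost. The interaction of col-139 was lost with limma voom, and that of col-104 with DESeq2 and without DMSO replicate 1 at 15 days (-0.97). Depth limits the rare genes, such as sperm genes and the collagens that rose, and with 3 libraries per group an exact permutation test of a single value cannot go below 0.1.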
